A study of Mus musculus with 8 samples.

Results

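The genes described here encode the constitutive proteasome, the set of subunits that most cells make at all times, together with its assembly chaperones and activators. Members were chosen by name: every gene on the array whose symbol began with Psma to Psmg followed by a number, without Psmb8, Psmb9, Psmb10, Psme1 and Psme2, which interferon-gamma induces. The rule found 45 genes, measured by 57 probes, among 34836 gene names on the array. Of these, 43 passed the filter on dim probes. The name does not hold for 4 of the 45: Psma8 and Psmb11 belong to testis and thymus forms of the core, Psmc3ip is a recombination factor and not a subunit, and Psme2b is a copy of the left-out Psme2.

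Livers came from bl6 mice aged 12 weeks on chow, 6 days after an adenovirus was given. The 4 AdLeXis livers received a virus labelled for LeXis, and the 4 AdGFP livers a virus labelled for green fluorescent protein, so all 8 livers had been given an adenovirus, and livers without one were not analysed here. LeXis is a long noncoding RNA of mouse liver that is induced by the sterol receptor LXR. The labels' treatment text names a control and a Raly short hairpin vector instead, whereas the titles, the treatment tag and the design name AdLeXis and AdGFP, which were followed. The titles number the livers but do not say that each was a separate animal, and the p-values therefore rest only on how these samples vary, part of which could be technical.

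The proteasome degrades proteins that carry ubiquitin chains. Its 20S core is a barrel of alpha rings, which form the gate, around beta rings, in which Psmb5, Psmb6 and Psmb7 cut peptide bonds. The 19S regulatory particle caps the barrel: a base with a ring of ATPases (Psmc genes) unfolds substrates, and a lid removes ubiquitin. Under interferon, Psmb8, Psmb9 and Psmb10 take the places of Psmb5, Psmb6 and Psmb7, and the Psme1 and Psme2 cap can replace the regulatory particle.

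Because Psmb5 and Psmb8 are related and fill the same site, one probe of each is shown, with capitals for the longest run that both share, 8 bases. In the ungapped alignment placed by that run, 31 of 50 bases were identical. Coordinates are those of the array files, build mm9. The Psmb5 probe lies at chr14:55233161-55233220 on the minus strand, and the Psmb8 probe at chr17:34337771-34337830 on the plus strand.
Psmb5 probe: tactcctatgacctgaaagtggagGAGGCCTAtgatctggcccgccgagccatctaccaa
Psmb8 probe: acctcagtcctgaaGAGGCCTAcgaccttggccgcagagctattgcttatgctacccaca
The next 3 probes carry calls among the regulatory particle genes and have no part in capitals. The Psmc5 probe covers a genomic span of 185 bases (chr11:106124192-106124376, plus strand) and the Psmd11 probe one of 515 bases (chr11:80283406-80283920, plus strand), so both cross an intron in the transcript, while the Psmd14 probe is contiguous (chr2:61599058-61599117, plus strand).
Psmc5 probe: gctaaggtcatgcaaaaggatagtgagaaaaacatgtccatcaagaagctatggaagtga
Psmd11 probe: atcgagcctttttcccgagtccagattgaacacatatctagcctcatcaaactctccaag
Psmd14 probe: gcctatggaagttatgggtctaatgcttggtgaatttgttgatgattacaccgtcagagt

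Promoters were looked up for the members because subunit genes are known to share upstream elements. RefSeq's table (GRCm38.p6) held 37 of the 45, and the 250 bases before the start were searched on both strands for 3 motifs spelled TGACNNNGC (the core of the antioxidant response element, which NRF1 and NRF2 bind), CCGGAA (the core bound by ETS factors) and CCAAT. The 3 motifs share no letters that would make one contain another. CCGGAA stood before 10 of 14 regulatory particle genes and 1 of 11 core genes, against 12.2% of all 27025 promoters in the table and 19.1% of the 12806 promoters of genes tested on the arrays. In the 10 regulatory particle genes its first base lay between 6 bases (Psmd13) and 125 bases (Psmd4) before the start, counting the match nearest to it. TGACNNNGC stood before 2 of 11 core genes (Psmb5 and Psmb6) and 2 of 14 regulatory particle genes (Psmc6 and Psmd12), against 10.1% of all promoters. CCAAT stood before 6 of 11 core and 4 of 14 regulatory particle genes, against 34.5%. A match describes letters and is no evidence of binding. A core promoter and a pair of lid promoters show the motifs, with TGACNNNGC or CCGGAA in capitals as found on either strand. Their windows are chr14:54617996-54618245 (minus strand) for Psmb5, chr11:80428365-80428614 (plus strand) for Psmd11 and chr11:107479278-107479527 (plus strand) for Psmd12.
Psmb5 promoter: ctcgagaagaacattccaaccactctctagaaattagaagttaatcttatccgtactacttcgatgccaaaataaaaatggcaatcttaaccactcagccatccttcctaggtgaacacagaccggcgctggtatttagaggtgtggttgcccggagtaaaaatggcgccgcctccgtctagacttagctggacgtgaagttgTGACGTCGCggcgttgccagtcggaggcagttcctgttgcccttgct
Psmd11 promoter: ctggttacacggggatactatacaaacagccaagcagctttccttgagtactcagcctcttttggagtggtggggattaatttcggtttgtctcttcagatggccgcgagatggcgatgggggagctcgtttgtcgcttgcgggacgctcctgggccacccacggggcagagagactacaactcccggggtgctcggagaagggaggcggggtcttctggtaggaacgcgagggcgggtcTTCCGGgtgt
Psmd12 promoter: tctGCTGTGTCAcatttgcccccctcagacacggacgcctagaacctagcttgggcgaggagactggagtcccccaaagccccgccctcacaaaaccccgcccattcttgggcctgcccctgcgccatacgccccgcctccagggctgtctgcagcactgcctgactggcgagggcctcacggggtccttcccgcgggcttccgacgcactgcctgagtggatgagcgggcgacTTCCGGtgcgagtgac

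Signal is the scanner's processed fluorescence, in log2 and shifted so that the 75th percentile of each array is the same. A change is the mean of the AdLeXis arrays minus that of the AdGFP arrays on this log2 scale. It was called when limma's two-sided p, adjusted by the Benjamini-Hochberg method over all 23985 genes tested, was under 0.05. Before scaling, the 75th percentile was 381 to 448 fluorescence units on AdLeXis arrays, against 220 to 297 on AdGFP arrays. Well above background were 62.6% to 67.7% of probes on AdLeXis arrays, against 58.9% to 62.5% for AdGFP, and no spot was saturated. All arrays shared 1 slide and 1 scan, but each group filled its own row of the slide, so position and group cannot be told apart. The 3 probes for the noncoding transcript beside Abca1, where LeXis lies, were well above background on 4 of 4 AdLeXis arrays each. On AdGFP arrays they were so on at most 1 of 4. Raly, the gene that the treatment text names, changed by 0.17 with means of 11.63 ± 0.11 on AdLeXis arrays and 11.46 ± 0.20 on AdGFP arrays (SD, n = 4 each) and was not called.

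None of the 14 core subunits passed the test in either direction, while 13 of 14 changes were negative, against 50.3% of all genes. Their median change was -0.17 (range -0.32 to 0.07), against -0.0018 for all genes, but it was 0.01 or 0.05 when background was treated by normexp, as described further on. Over the whole array 17.5% of genes were called, 8.74% higher and 8.77% lower. Without adjustment, 3 core genes had a p under 0.05, namely Psmb4, Psma3 and Psmb6, against 32.1% of all genes. On 4 core genes (Psma3, Psmb3, Psmb4 and Psmb6) all 4 AdLeXis arrays lay below all 4 AdGFP arrays, which was the case for 12.2% of all genes. Leaving out the fourth AdGFP array gave a core median of -0.23 and 1 called core gene.

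Psmb5 carries the chymotrypsin-like activity. Its signal was 16.00, 16.04, 15.85 and 16.12 on the AdLeXis arrays, against 16.20, 16.26, 16.17 and 15.90 on the AdGFP arrays. The ranges overlapped, and the change of -0.13 (95% interval -0.37 to 0.11) was not called (adjusted p = 0.435). Its second probe, the one printed above, changed by -0.15.

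Psmb6, the caspase-like subunit, had 15.26, 15.23, 15.20 and 15.20 on AdLeXis arrays, against 15.36, 15.48, 15.54 and 15.38 on AdGFP arrays. All AdLeXis values were lower, by an average of -0.22 (SE 0.075), with an adjusted p of 0.082. Psmb7, the trypsin-like subunit, had 13.05, 13.41, 13.32 and 13.25 on AdLeXis arrays, against 13.36, 13.55, 13.08 and 13.28 on AdGFP arrays. Its groups overlapped, and its change was -0.07 (95% interval -0.35 to 0.22, adjusted p = 0.762).

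Among the other core genes, Psma5, a ring subunit, had the most negative change, -0.32 (95% interval -0.65 to 0.01, adjusted p = 0.163), with 13.08, 13.36, 13.36 and 13.34 on AdLeXis arrays, against 13.66, 13.75, 13.81 and 13.22 on AdGFP arrays. The fourth AdGFP array lay among the AdLeXis values. Psma6 was the only core gene with a positive change, 0.07 (95% interval -0.37 to 0.52), and there too the fourth AdGFP array, at 12.95, lay apart from the other AdGFP arrays at 13.68 to 13.76. Psma7 was nearest to no change in the alpha ring at -0.05 (95% interval -0.26 to 0.15). Among the beta subunits that do not cut, Psmb4 came nearest to a call, with 15.49, 15.53, 15.49 and 15.35 on AdLeXis arrays and 15.80, 15.68, 15.90 and 15.64 on AdGFP arrays, a change of -0.29 (SE 0.088, adjusted p = 0.054). Psmb2 had the smallest change of these 4, -0.16 (95% interval -0.41 to 0.09).

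**Figure D1:**
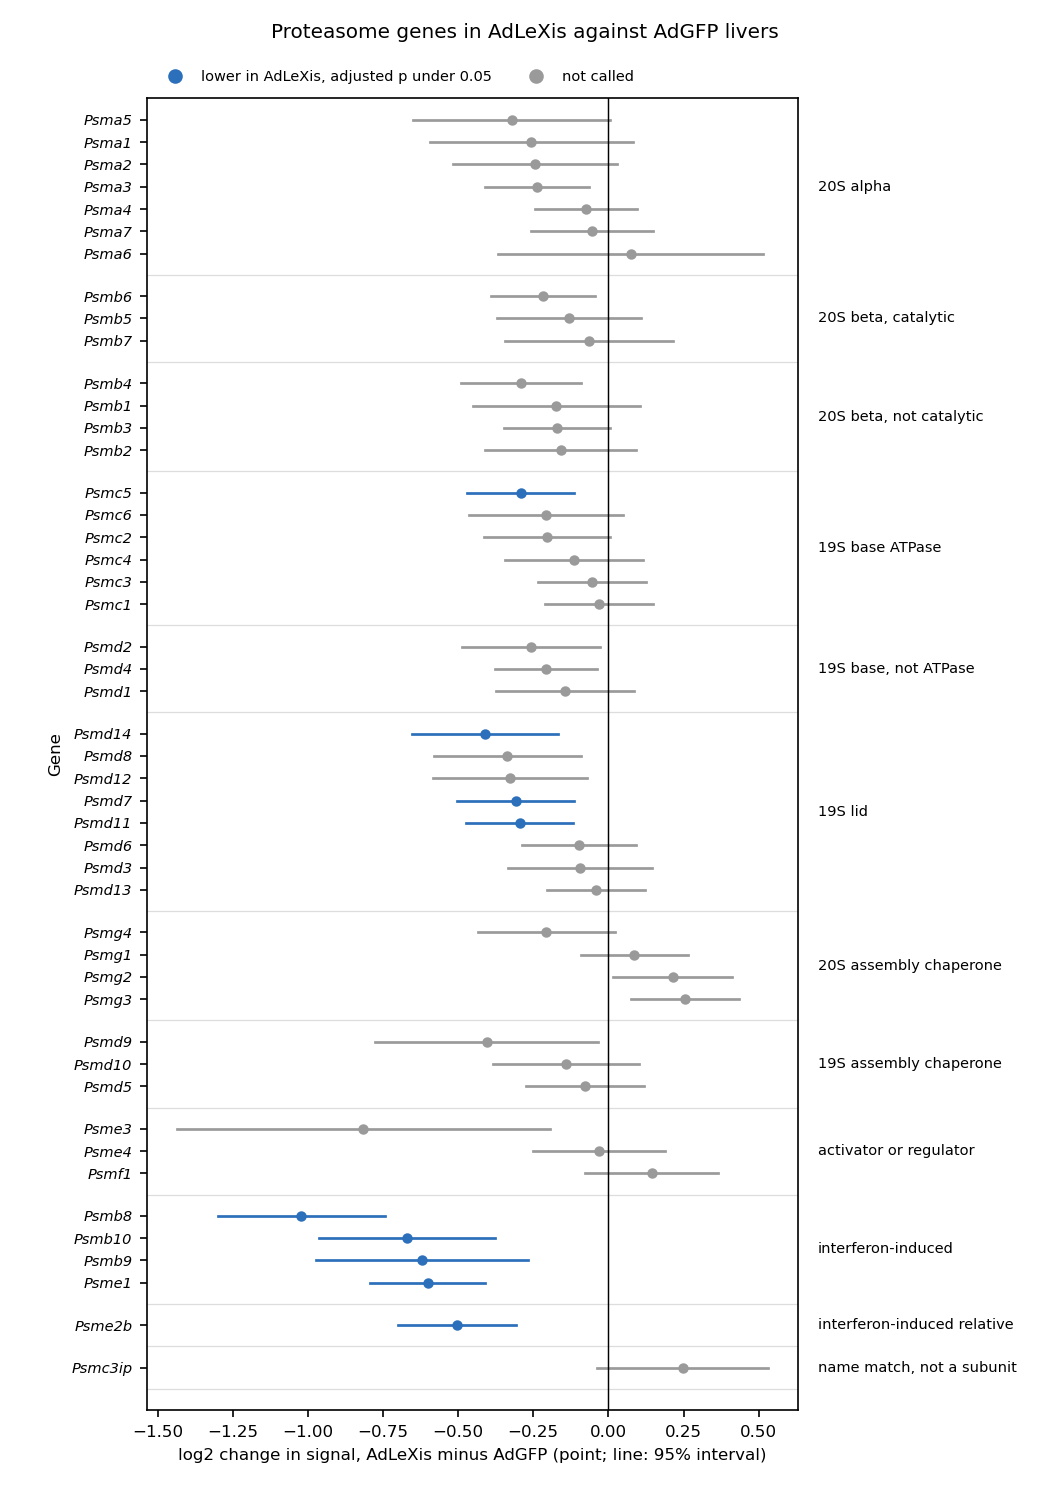
Log2 change in signal (AdLeXis minus AdGFP, points) with its 95% interval (lines) for the 43 measured members by role and the 4 measured interferon-induced genes. Blue genes were called lower and grey ones were not called. Most constitutive subunits lie slightly left of 0 on this processed signal (under normexp background the core median was above 0), and the interferon-induced genes lie farther left.

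In the regulatory particle 4 of 17 genes fell and none rose. All 17 changes were negative, against 50.3% of all genes, with a median of -0.21 (range -0.41 to -0.03). Under normexp background, however, the median was -0.01 or 0.06. The 4 were Psmd14, Psmd7 and Psmd11 of the lid and Psmc5 of the ATPase ring. Of genes within the same range of signal as the core and regulatory subunits, 19.2% were called, 9.4% higher and 9.79% lower. In 7 of the 17 genes all AdLeXis arrays lay below all AdGFP arrays, against the 12.2% of all genes given above. The count of 4 was not stable: it was 0 to 2 when any 1 of the 8 arrays was left out, 0 with no filter on dim probes, 2 with cyclic loess scaling and 7 with an intensity trend in the variance. In the 8 analyses that each left out 1 array, Psmd7 lost its call in 8, Psmd11 and Psmc5 in 7 each, and Psmd14 in 5.

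Psmd14 is the lid's deubiquitinating enzyme, which cuts ubiquitin chains off substrates. It had 10.22, 10.58, 10.53 and 10.54 on AdLeXis arrays, against 10.90, 10.92, 10.97 and 10.72 on AdGFP arrays. No AdLeXis array reached an AdGFP array, and the gene fell by 0.41 (SE 0.106, adjusted p = 0.032). Psmd7, its partner in the lid, fell by 0.31 (SE 0.085, adjusted p = 0.040), with 11.81, 11.83, 11.81 and 11.85 on AdLeXis arrays, against 12.03, 12.07, 12.32 and 12.14 on AdGFP arrays. The AdLeXis arrays were tightly grouped. Under normexp background with quantile scaling the Psmd7 change was 0.11 and was not called, so its direction depended on the processing. Normexp also started from signal that was not detrended and added an offset of 50, and which step mattered was not tested.

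Psmd11, a scaffold of the lid, fell by 0.30 (SE 0.077, adjusted p = 0.034). Its signal was 11.94, 11.81, 11.90 and 11.94 on AdLeXis arrays, against 12.16, 12.11, 12.29 and 12.23 on AdGFP arrays, with no overlap. The lid genes Psmd8 at -0.34 (adjusted p = 0.063) and Psmd12 at -0.33 (adjusted p = 0.081) had no overlap either and missed the threshold. Psmd13 was nearest to no change in the lid, at -0.04 (95% interval -0.20 to 0.12).

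In the base, Psmc5, one of the unfolding ATPases, fell by 0.29 (SE 0.078, adjusted p = 0.037). It had 12.88, 13.00, 12.76 and 12.86 on AdLeXis arrays, against 13.16, 13.12, 13.21 and 13.17 on AdGFP arrays. The other 5 ATPases were not called. Psmc1 was nearest to no change at -0.03 (95% interval -0.21 to 0.15), but its second probe changed by -0.30. Of the 3 base subunits without ATPase activity, Psmd2, a large scaffold, changed by -0.26 (adjusted p = 0.115), the ubiquitin receptor Psmd4 by -0.21 (adjusted p = 0.089) and Psmd1 by -0.14 (adjusted p = 0.367). Psmd4 alone of these 3 had no overlap between the groups.

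**Figure D2:**
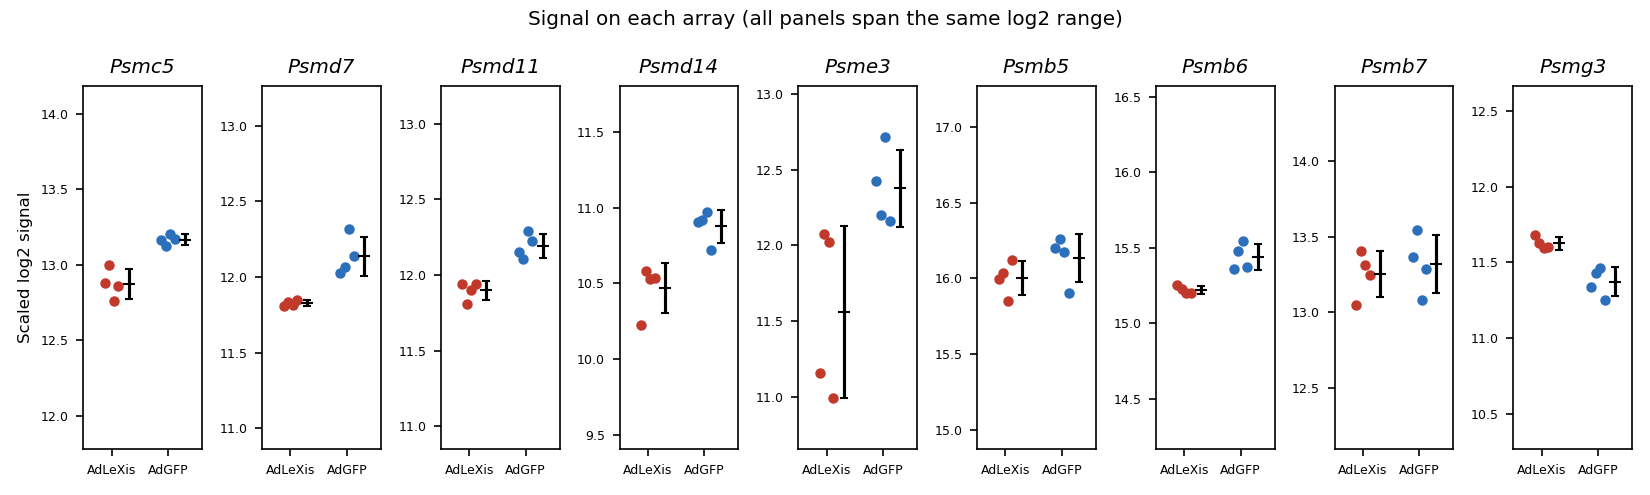
Scaled log2 signal of 9 members on each array (points: AdLeXis red on the left, AdGFP blue on the right; bars: mean and SD, n = 4 each), every panel spanning the same height. The 4 called regulatory particle genes show separated groups with differences of 0.29 to 0.41, while Psmb5 and Psmb7 overlap.

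Core and regulatory particle were set against each other within each array, as the mean signal of the 14 core genes minus that of the 17 regulatory genes. The difference was 0.69, 0.74, 0.71 and 0.68 on AdLeXis arrays and 0.74, 0.70, 0.67 and 0.56 on AdGFP arrays. The means were 0.71 ± 0.03 for AdLeXis and 0.67 ± 0.08 for AdGFP (SD, n = 4 each), so the 2 particles did not separate beyond the spread between arrays. The size of the difference compares different probes and has no meaning of its own, unlike its change between groups. The same measure for the 4 interferon-induced genes minus the core was 0.47, 0.14, 0.12 and 0.03 on AdLeXis arrays, against 0.79, 0.84, 0.67 and 0.72 on AdGFP arrays. Every AdLeXis array lay below every AdGFP array.

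**Figure D3:**
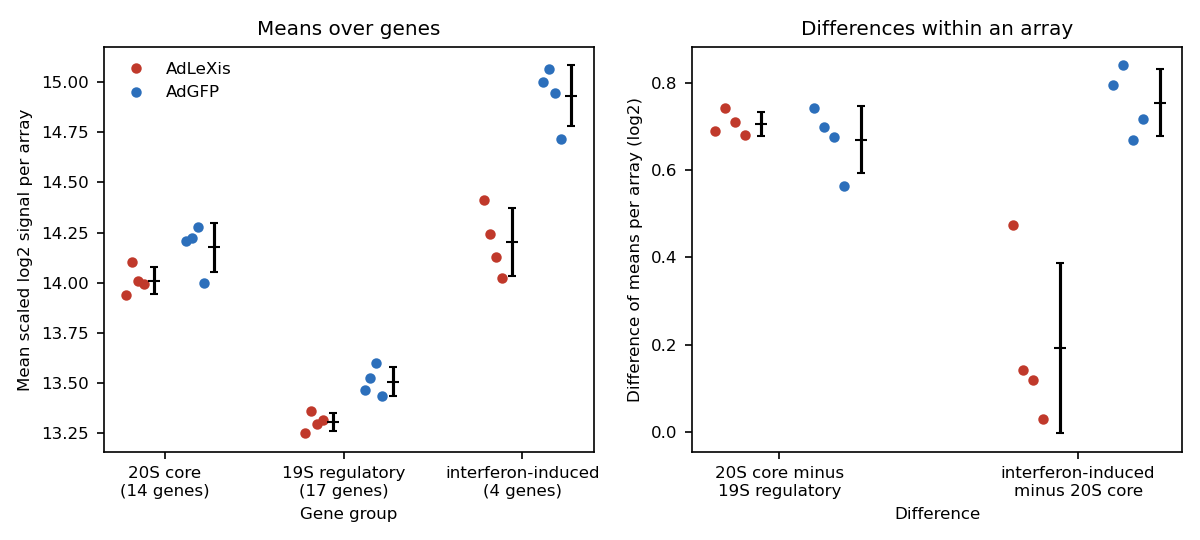
Left, mean scaled log2 signal per array of the core, regulatory and interferon-induced genes; right, differences of these means within an array (points: AdLeXis red and AdGFP blue; bars: mean and SD, n = 4 each). Core minus regulatory overlaps between the groups, at 0.71 ± 0.03 for AdLeXis and 0.67 ± 0.08 for AdGFP, and interferon-induced minus core does not, at 0.19 ± 0.19 for AdLeXis and 0.75 ± 0.08 for AdGFP.

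The interferon-induced counterparts fell in 4 of 4 measured genes. Psmb8 fell by 1.02 (SE 0.122, adjusted p = 0.0018), Psmb10 by 0.67 (adjusted p = 0.011), Psmb9 by 0.62 (adjusted p = 0.028) and Psme1, a subunit of the alternative cap, by 0.60 (adjusted p = 0.0031). Psme2 had no probe of that name. Psmb9 was not called in 5 of the 8 analyses that each left out 1 array, whereas Psmb8, Psmb10 and Psme1 were called in each of the 20 alternative analyses. For each catalytic site the constitutive minus the induced subunit was compared over the 70 possible relabellings of the arrays by an exact two-sided permutation test, whose smallest possible p is 0.0286, in 3 comparisons. Psmb5 minus Psmb8 was 2.68 ± 0.25 on AdLeXis arrays and 1.79 ± 0.03 on AdGFP arrays (SD, n = 4 each), a shift of 0.89 with an exact p of 0.0286, or 0.057 adjusted over the 3 sites, and it was higher on 4 of 4 AdLeXis arrays than on any AdGFP array. Psmb7 minus Psmb10 was -1.71 ± 0.33 on AdLeXis arrays and -2.31 ± 0.18 on AdGFP arrays, a shift of 0.60 (exact permutation p = 0.057, adjusted 0.057). Psmb6 minus Psmb9 was 1.51 ± 0.20 on AdLeXis arrays and 1.11 ± 0.25 on AdGFP arrays, a shift of 0.40 (exact permutation p = 0.057, adjusted 0.057). All 3 shifts had the same sign, and none passed the threshold after adjustment.

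None of the assembly chaperones was called. Psmg1 to Psmg4 build the alpha ring, and 3 of these 4 had positive changes, with a median of 0.15. Psmg3 had 11.68, 11.63, 11.59 and 11.60 on AdLeXis arrays, against 11.34, 11.43, 11.46 and 11.25 on AdGFP arrays, a change of 0.26 (SE 0.078, adjusted p = 0.057) with no overlap. Psmg2 also had no overlap, at 0.21 (adjusted p = 0.130), as 12.4% of all genes had in this direction. Psmg4 ran the other way, at -0.21 (adjusted p = 0.195), and Psmg1 was nearest to no change, at 0.09 (95% interval -0.09 to 0.26).

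The 3 chaperones of the regulatory base were not called. Psmd9 changed by -0.40 (95% interval -0.78 to -0.03, adjusted p = 0.125), but its second probe changed by -0.07. Psmd10 changed by -0.14, with 0.09 on its second probe, and Psmd5 by -0.08 (95% interval -0.28 to 0.12).

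Of the activators and regulators, Psme3, the nuclear cap, had the most negative change of any member and the widest spread. It had 11.16, 12.08, 12.02 and 10.99 on AdLeXis arrays, against 12.42, 12.20, 12.72 and 12.16 on AdGFP arrays. The AdLeXis arrays formed a high and a low pair, both below the AdGFP arrays, and the change of -0.82 (SE 0.272, adjusted p = 0.073) was not called. Psme4, an activator of chromatin-associated proteasomes, was nearest to no change at -0.03 (95% interval -0.25 to 0.19). Psmf1, a proteasome inhibitor in biochemical assays, changed by 0.14 (95% interval -0.08 to 0.37).

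Psme2b fell by 0.50 (SE 0.086, adjusted p = 0.0068) and was called in each of the 20 alternatives. It had 15.20, 15.13, 15.01 and 15.03 on AdLeXis arrays, against 15.67, 15.64, 15.62 and 15.45 on AdGFP arrays. Its 3 probes changed by -0.50, -0.45 and -0.92. Psme2b is a copy of Psme2, which had no probe under its own name, so which of the 2 transcripts these probes measured is uncertain. Psmc3ip changed by 0.25 (95% interval -0.04 to 0.53). Psma8 and Psmb11 were well above background on 0 of 8 arrays, so they have no change here.

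Counting all members, 5 of 43 fell and 38 were not called. Of the 43 changes 37 were negative, against 50.3% of all genes, with a median of -0.17. Of all genes, 8.77% were called lower, and Psme2b, an interferon-induced relative, is among the 5. Without adjustment 16 members had a p under 0.05, of which 14 were lower and 2 higher, against 32.1% of all genes. In bulk liver RNA, fewer cells of a type and less RNA per cell cannot be told apart.

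The direction of the core and regulatory medians depended on whether processed signal or normexp was used. The 2 differ in background, in detrending and in an offset of 50 that normexp added to every spot before the log2 scale. The part of each step was not tested. The processed signal had been spatially and multiplicatively detrended, per the file headers, whereas normexp starts from the mean spot signal, which is not detrended. The ratio of processed signal to background-subtracted mean signal over the members lay between 0.891 and 1.16 on AdLeXis arrays, against 0.729 and 1.73 for AdGFP. In 24 members the ratio was on average higher on AdGFP arrays. Their median change was -0.16 with processed signal and 0.10 with normexp and 75th percentile scaling, an analysis added after the data were seen. In the other 19 members the medians were -0.17 with processed signal and -0.19 with normexp. A change in processed signal contains the change in this ratio, so the split only describes the signals and tests no cause. With normexp and the 75th percentile, 23 of 43 changes were negative, while the median of all genes moved to -0.19. The 4 interferon-induced genes and Psme2b stayed negative and called under normexp with either scaling, as did Psmd11 and Psmd14. With normexp and the 75th percentile, however, 9678 genes of the whole array were called lower, against 2104 in the main analysis. In that setting 67.8% of all genes had negative changes, so a negative call there sets a gene less apart from the rest. Psmc5 stayed negative, with a call under normexp and quantile scaling and none under normexp and the 75th percentile.

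**Figure D4:**
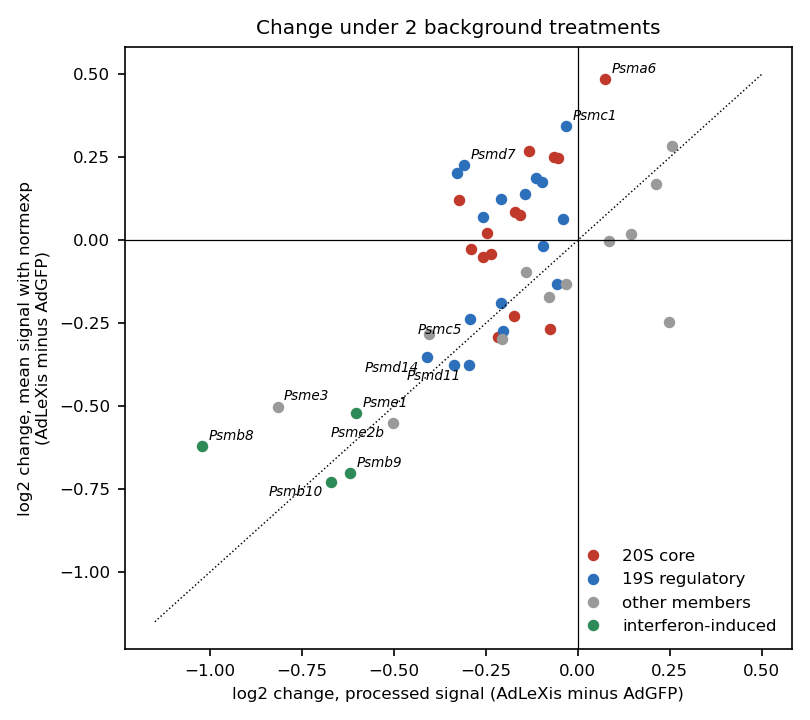
Each point is a gene's log2 change (AdLeXis minus AdGFP) with processed signal (x axis) and with normexp background on mean signal, scaled to the 75th percentile (y axis); the dotted line marks equal values. Many core (red) and regulatory (blue) genes lie left of 0 and above 0, so their direction turns, and the interferon-induced genes (green) and Psme2b are negative on both axes.

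Other genes of the pathway were read against the 17.5% of all genes that were called. Of 8 further proteasome parts and assembly factors, the ubiquitin receptor Adrm1 fell by 0.39 (adjusted p = 0.043), and the core maturation factor Pomp changed by -0.34 (adjusted p = 0.090). Akirin2 changed by 0.27 (adjusted p = 0.059), and 2 of these 8 changes were positive. Of 7 regulators of the proteasome or its genes, the transcription factor Nfe2l2 (NRF2) rose by 0.34 (adjusted p = 0.039) and the arsenite-induced Zfand2a rose by 0.40 (adjusted p = 0.040). Nfe2l1 (NRF1), the factor that restores subunit transcription when the proteasome is inhibited, changed by 0.15 (adjusted p = 0.418). Of 7 shuttle factors, which carry ubiquitinated proteins, Ubqln1 fell by 0.27 (adjusted p = 0.049). Ubqln4 changed by 0.32 (adjusted p = 0.085), and 4 of these 7 changes were positive. Of 9 genes for the unfoldase VCP and its cofactors, Nsfl1c fell by 0.31 (adjusted p = 0.041), and Vcp itself changed by -0.27 (adjusted p = 0.057).

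None of 6 ubiquitin and E1 genes and none of 19 genes of ER-associated degradation were called, and their smallest p-values belonged to Rps27a and Uba1 (-0.15 and -0.14), and to Sec61b and Syvn1 (-0.21 and 0.28). Of 6 deubiquitinating enzymes only Psmd14 was called. The cytosolic chaperonin CCT, another abundant particle, had 0 of 8 genes called and a median change of -0.03, with the smallest p-values for Cct3 (-0.24) and Cct6a (0.22). In 2 particles related to the lid, 1 of 9 COP9 signalosome genes rose (Cops7b, by 0.61, adjusted p = 0.0060), and 2 of 12 translation factor eIF3 genes rose (Eif3l by 0.29, adjusted p = 0.049, and Eif3k by 0.23, adjusted p = 0.0499). Their median changes were 0.06 and 0.05.

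Markers of liver cell types moved as well. The counts below stand beside 8.77% of all genes called lower. Of 6 hepatocyte markers 4 fell, among them Alb by 0.61 (adjusted p = 0.0043). Cps1 changed by -0.20 (adjusted p = 0.357) and Hnf4a by 0.03 (adjusted p = 0.872), and neither was called. The mean log2 signal of the 6 was 16.58 to 16.77 on AdLeXis arrays, against 17.03 to 17.12 on AdGFP arrays. All 8 T and NK cell markers fell, with a median of -1.10, and their mean was 8.39 to 8.75 on AdLeXis arrays, against 9.59 to 9.73 on AdGFP arrays. Of 7 Kupffer cell and macrophage markers 1 fell (Cd68), with means of 12.2 to 12.5 on AdLeXis arrays and 12.3 to 12.7 on AdGFP arrays. In this list 2 changes were positive, the larger that of Vsig4, at 0.50 (adjusted p = 0.094). Of 6 stellate cell markers 2 fell (Des and Pdgfrb), with means of 8.72 to 8.88 on AdLeXis arrays and 8.85 to 9.12 on AdGFP arrays. None of 6 endothelial, 4 B cell, 3 spermatid and 2 thymic epithelium markers was called. The part of these shifts in the subunits' changes was not tested.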

How the data were processed

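Total RNA of 8 livers was hybridised to 1-colour Agilent arrays. Per the file headers, Agilent Feature Extraction 11.5.1.1 made the deposited intensity values (the submitters' processing notes give 11.5.1.11): the authors' processed signal is background-subtracted and spatially detrended, and the deposited value table equals it spot for spot. Control spots and outlier spots were left out, spots of a probe averaged, and processed signal put on the log2 scale minus each array's 75th percentile. Probes well above background on at least 4 arrays were kept (34440 probes), with the brightest kept probe per gene (23985 genes). Gene names were those of the array files, updated through RefSeq accessions for 27656 of 55681 probes and matched by symbol for 3401. limma 3.58.1 in R 4.3.3 fitted AdLeXis against AdGFP, two-sided, and Benjamini-Hochberg adjustment ran over all genes. The fit was tested on simulated data in which 50 genes were changed at each fold size. It recovered 1 of 50 at 1.25-fold, 14 at 1.5-fold, 36 at 2-fold and 46 at 4-fold, with 5 false calls. Far fewer genes changed there than were called in the livers, so these shares need not hold here. A missing call does not show that a gene was unchanged. The number of arrays, 4 in each group, limits the precision.

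Members and lists were chosen with earlier results of these data known. By rule, the text names every called member, Psmb5, Psmb6 and Psmb7, the largest rise and fall and the gene nearest to no change in each role, the left-out interferon genes, and in each partner list the called genes or otherwise the 2 of smallest p. Psma3, Psmb3, Psmd4, Psmd8, Psmd10, Psmd12, Psmg2, Nfe2l1, Pomp, Akirin2, Ubqln4 and Vcp were named after their values were seen, as were genes named for a motif or for a distant array. Cell type marker lists are given by their counts, with few genes named. Alternatives changed the scaling, background, filter, probe rule, variance model, replicate block, value table or left out 1 array.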

Additional observations from a re-analysis of the deposited data

Results flagged for a closer look

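In 98 groups of 4 arrays (each measured member and interferon-induced gene in each group, and the means of the core and the regulatory particle), 7 groups had 1 array far from the other 3, by a gap that exceeded Dixon's 95% critical value, where chance flags about 1 group in 20. In all 7 the distant array was the low one.

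On the first AdLeXis array, Psmd14 was 10.22 against 10.53 to 10.58 on the other AdLeXis arrays, Psmc6 was 11.08 against 11.35 to 11.37, and Psma5 was 13.08 against 13.34 to 13.36. On the third AdLeXis array, Psmd4 was 14.88 against 15.02 on each of the others.

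On the fourth AdGFP array, Psma6 was 12.95 against 13.68 to 13.76 on the other AdGFP arrays, Psmd3 was 14.56 against 14.91 to 14.94, and Psmf1 was 9.74 against 9.96 to 9.98.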

How the results depend on the processing

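Under 20 alternatives (1 of them, normexp background with 75th percentile scaling, chosen after the data were seen), 23 of 43 members kept their direction when called and their side of the threshold, and 20 did not in at least 1. The alternative with the deposited value table used the same values as the main analysis, so its results could not differ. The count of members called lower (5) was 7 with median scaling, 3 with cyclic loess, 10 with normexp and quantile scaling, 8 with normexp and the 75th percentile, 1 with no filter, 11 with an intensity trend, and 1 to 3 with 1 array left out, whichever array it was. Over the whole array, genes called lower were 2104 in the main analysis, 2683 with median scaling and 2074 with cyclic loess. They were 2614 with normexp and quantile scaling and 9678 with normexp and the 75th percentile. Called higher (0) were 1 member under cyclic loess, normexp with quantile scaling, detection on all 8 arrays and the intensity trend, and 2 under normexp with the 75th percentile. Core genes called lower (0) were 1 with median scaling, detection on all arrays, array weights or without the fourth AdGFP array, 2 under either normexp setting and 3 with the trend; 1 core gene was called higher under normexp with the 75th percentile. Regulatory genes called lower (4) were 2 with cyclic loess, 0 with no filter, 7 with the trend and 0 to 2 with 1 array left out, and 1 was called higher under either normexp setting.

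The core median was 0.0058 and 0.048, and the regulatory median -0.0072 and 0.064, under normexp with quantile and 75th percentile scaling, and the regulatory median was -0.29 with median scaling, which moved the median of all genes to -0.08. The core median ran from -0.23 to -0.14 and the regulatory median from -0.23 to -0.14 with 1 array left out. Core minus regulatory median was 0.03, and -0.02 to 0.05 with 1 array left out. Psmd7 turned to 0.11 and 0.23 and Psmc1 to 0.35 and 0.34 under these normexp settings. The cause was not tested. The count of genes called higher was 1158 with median scaling (1246 to 2087 with 1 array left out, against 2096), and that of genes called lower 9678 under normexp with the 75th percentile (1273 to 2037 against 2104).

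Psmb5 minus Psmb8 passed the adjusted threshold (0.0429) at 0.99 under normexp with quantile scaling, 1.05 under quantile scaling of processed signal and 0.88 with the mean of probes. Psmb7 minus Psmb10 passed it at 0.86 under normexp with quantile scaling. Psmb6 minus Psmb9 passed it at 0.47 under quantile scaling of processed signal and 0.34 with the mean of probes. With 1 array left out the 3 shifts ran from 0.78 to 0.97, 0.51 to 0.77 and 0.31 to 0.49 (in the order Psmb5, Psmb7 and Psmb6), and without the first AdLeXis array the Psmb5 pair (0.97) and the Psmb7 pair (0.77) passed the adjusted threshold (0.0429).

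Replicate numbers did not pair the samples (correlations of deviations 0.0136, 0.0647, 0.117 and 0.00168). With the replicate block, 1 member and 0 regulatory genes were called lower.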
